A study of Mus musculus with 18 samples.

Results

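Mir191 and Mir425 are neighbouring miRNA hairpin loci on mouse chromosome 9, and they make up 2 of the 2009 loci in the count files. The pair was chosen from these same data by its counts over the 4 groups, with the higher level of Mir191 in cells already known. Differences between vesicles and cells are therefore given for the pair as a description with no test, and tests are kept for priming. The counts come from mouse adipose-derived stromal cells (ASC), which are mesenchymal cells grown from fat, and from the extracellular vesicles (EVs) released by such cells. The labels give strain NGL, adipose tissue and adult age for all 18 libraries. All cells were kept for 48 h in alpha MEM medium with 2% EV-free fetal bovine serum, and primed cells had first received interferon gamma for 24 h. The groups were naive EV, without interferon gamma, and primed EV, with 5 libraries each, and naive ASC and primed ASC, with 4 libraries each. The titles of primed EV 1 and primed EV 5 carry the same number, 5, and both were counted as separate libraries. Naive EV 1 and naive ASC 1 carry the number 1+2, and the labels explain neither. RNA of the cells came from a TRIzol and RNeasy isolation and RNA of the vesicles from a SeraMir column kit, so compartment and isolation method cannot be told apart. Each library took 5 µl of RNA. The labels do not say whether replicates came from separate animals or cultures, so the p-values refer to the spread between these libraries alone, which may be technical.

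A miRNA hairpin is cut out of a longer primary transcript in the nucleus by Drosha and then by Dicer in the cytoplasm. One strand of the resulting duplex enters an Argonaute protein, where its seed, bases 2 to 8, pairs with target mRNAs. Mir191 and Mir425 are known as products of a shared primary transcript of the Dalrd3 gene. Loci that share a primary transcript can still give unequal amounts of mature miRNA, since cropping, loading and decay act on each hairpin. miR-191 is among the miRNAs often proposed as a qPCR reference because of its even level across tissues, and miR-425 has been used in the same way in serum and vesicle work. EVs carry small RNAs in proportions that can differ from those of their cells of origin.

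The mature arms are shown because the seed decides which transcripts each miRNA can pair with, and the counts add both arms of a hairpin. RefSeq gives them on GRCm38.p6, plus strand, as follows, written 5′ to 3′ with the seed in capitals.
miR-191-5p: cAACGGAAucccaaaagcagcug
miR-191-3p: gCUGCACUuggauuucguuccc
miR-425-5p: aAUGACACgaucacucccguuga
miR-425-3p: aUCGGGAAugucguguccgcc
No seed was shared within the pair. Aligned from their first base without gaps, miR-191-5p and miR-425-5p had the same base at 5 of 23 positions, and their seeds at 2 of 7. Among 1679 mature sequences of the RefSeq table, miR-425-5p shared its seed with 1 other, miR-489-3p, whose locus Mir489 had 0 counts in every library. The other 3 arms shared their seeds with none of that table.

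The hairpins are shown because they are the units that were counted, with both mature arms in capitals.
Mir191: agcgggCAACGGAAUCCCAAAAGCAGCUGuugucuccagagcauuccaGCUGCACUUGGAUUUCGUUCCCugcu
Mir425: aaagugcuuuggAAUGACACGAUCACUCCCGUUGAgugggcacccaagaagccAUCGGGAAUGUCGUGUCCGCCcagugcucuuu
The Mir191 hairpin lies at chr9:108568319-108568392 and has 74 bases, and the Mir425 hairpin lies at chr9:108568777-108568861 and has 85 bases. Both are on the plus strand, with 384 bases between them. Both had a GC content of 54.1%, against a median of 50% over the 215 of 245 analysed loci with a hairpin in the RefSeq table.

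The position decides what the Mir191 counts contain. The files hold 0 entries under the GENCODE identifier of Mir191. The locus counted there is ENSMUSG00000092915, a minus-strand miRNA entry that GENCODE M21 calls Gm24083, at chr9:108568295-108568414. Its 120 bases cover the whole Mir191 hairpin with 24 more before it and 22 after it, and 1 RefSeq hairpin falls inside. Counting disregarded strand, so reads of Mir191 count there, and reads from the opposite strand could not be told apart from them. The values called Mir191 below are those of this locus. Mir425 was counted under its own identifier, ENSMUSG00000065579, on exactly the bases of its hairpin.

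RefSeq places both hairpins inside Dalrd3, at chr9:108567484-108572773. In GENCODE M21 that coding gene starts 1025 bases after the end of Mir425, and both hairpins lie in the lincRNA 4833445I07Rik, from 108567533 to 108569174. Both fall in the exon of transcript 4833445I07Rik-201, which has 1 exon, and Mir191 falls in the intron of 4833445I07Rik-202, which has 2.

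**Figure D1:**
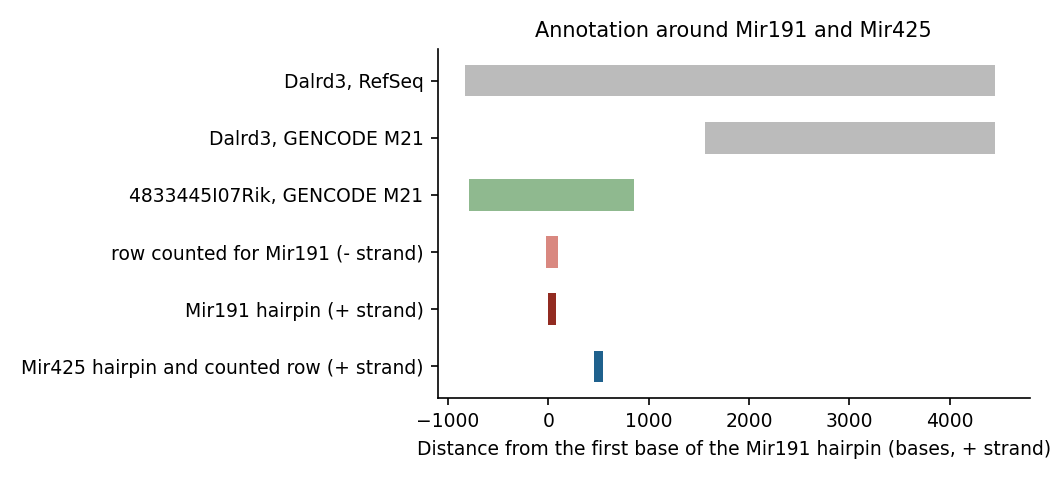
Annotation of the region, drawn to scale as distance in bases from the first base of the Mir191 hairpin. The locus counted for Mir191 spans the hairpin with 24 bases before and 22 after it, both hairpins lie inside RefSeq's Dalrd3 and inside 4833445I07Rik, and GENCODE's Dalrd3 starts 1025 bases beyond Mir425.

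Library totals ran from 180812 to 3052942 counts, with counts at 303 to 423 loci, and 245 loci passed the filter on low counts, both members among them. Mesenchymal marker loci held 66.8% to 71.5% of counts in EV libraries and 27.4% to 52.5% in ASC libraries. The 7 epithelial markers held 0.00102% to 0.287% of counts in EVs and 0.00411% to 0.270% in ASC. The 4 muscle markers held at most 0.00318%, with Mir133a-1 and Mir133a-2 at 0 in all 4 groups, and the liver marker Mir122 was at or below 0.00196% of counts. The 6 blood cell markers held 0.147% to 1.49% of counts in EVs and 0.00916% to 0.0559% in ASC, and the endothelial marker Mir126a held 0.198% to 0.902% and 0.00601% to 0.0592%. The mesenchymal, blood cell and endothelial shares moved with the EV against ASC difference described below, and their part in it was not tested.

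Mir191 was one of the most abundant loci of the cells. Its share of counts was 6.22% ± 1.90 (SD, n = 4) in cells without priming and 7.42% ± 0.775 (n = 4) in primed ones. In the vesicles it was 1.52% ± 0.176 (n = 5) without priming and 1.49% ± 0.208 (n = 5) with it. By share it ranked 1 to 5 in single ASC libraries and 8 or 9 in every EV library. Its mean share in naive ASC came between those of Mir143, a fibroblast and smooth muscle miRNA, and Mir10a, encoded in a Hox cluster. In naive EVs it came between Mirlet7i and Mir27b.

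Normalised values are counts per 1e6 of the library total after TMM scaling (CPM), a scaling that sets the bulk of loci level between libraries. Mir191 had 14293, 14407, 17453, 19008 and 17621 CPM in naive EV 1 to 5. In primed EV 1 to 5 it had 25280, 15361, 18018, 20199 and 20930 CPM. It had 53165, 41136, 39558 and 56930 CPM in naive ASC 1, 3, 4 and 5. In primed ASC 2 to 5 it had 52766, 63916, 61737 and 61734 CPM. Every ASC library lay above every EV library, naive and primed ASC overlapped, and so did naive and primed EVs. These values rest on 10066 to 41201 counts in an EV library and 14873 to 58060 in an ASC library. Counting error is therefore small beside the spread between libraries.

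Mir425 was far less abundant. Its share of counts was higher in every ASC library than in every EV library, while its TMM-scaled level overlapped between the compartments. Its share of counts was 0.0494% ± 0.00940 (SD, n = 5) in vesicles of unprimed cells and 0.0466% ± 0.00841 (n = 5) in those of primed cells. The cells themselves had 0.0756% ± 0.0110 (n = 4) without priming and 0.0894% ± 0.0184 (n = 4) with it. The highest EV share was 0.0593% and the lowest ASC share 0.0650%. Single libraries placed it between rank 62 and rank 88.

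Mir425 had 552, 533, 526, 693 and 383 CPM in naive EV 1 to 5. In primed EV 1 to 5 it had 810, 435, 517, 728 and 647 CPM. It had 638, 551, 578 and 582 CPM in naive ASC 1, 3, 4 and 5. The naive ASC libraries lay inside the range of naive EVs. In primed ASC 2 to 5 it had 800, 686, 498 and 945 CPM, so that 3 of them were above every naive ASC library and 1 was below. The low value, in primed ASC 4, rests on 120 counts of the shallowest library, with an exact Poisson interval of 413 to 596 CPM (95%, counting error only). Reads were counted without molecular identifiers, so counting intervals do not cover amplification. An EV library held 232 to 1168 counts of Mir425 and an ASC library 120 to 880.

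**Figure D2:**
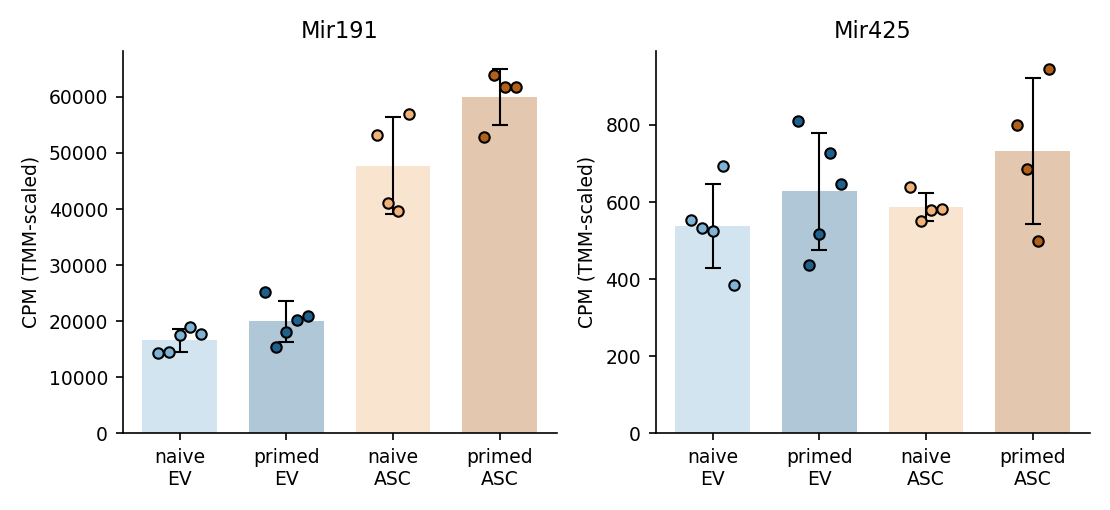
Level of each locus in TMM-scaled CPM on a linear axis from 0, with points for libraries, bars for group means and whiskers for 1 SD (n = 5, 5, 4 and 4). All 8 ASC libraries lie above all 10 EV libraries for Mir191, between 39558 and 63916 CPM against 14293 and 25280, while the groups overlap for Mir425.

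Mir191 was 2.88-fold lower in naive EVs than in naive ASC, with means of 16556 ± 2103 CPM (SD, n = 5) and 47697 ± 8649 CPM (n = 4). The fitted log2 fold change was -1.53 (SE 0.16), the 31st lowest of 245 loci. In primed samples it was 3.01-fold lower, with means of 19958 ± 3682 CPM (n = 5) and 60038 ± 4956 CPM (n = 4) and a log2 fold change of -1.59 (SE 0.16). Such differences were common in these data. In the naive comparison 162 of 245 loci (66.1%) passed edgeR's quasi-likelihood test at a Benjamini-Hochberg adjusted p of 0.05, and 58.4% of loci had groups that did not overlap. In the primed comparison 167 of 245 (68.2%) passed and 53.5% did not overlap. Counts are relative to each library, so less RNA per cell or vesicle and fewer cells or vesicles that carry it cannot be told apart.

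Mir425 had means of 538 ± 110 CPM (SD, n = 5) in naive EVs and 587 ± 36.7 CPM (n = 4) in naive ASC, and of 627 ± 152 CPM (n = 5) and 732 ± 189 CPM (n = 4) in primed EVs and primed ASC. Its log2 fold changes were -0.13 (SE 0.22; 95% interval -0.58 to 0.33) and -0.23 (SE 0.22; -0.68 to 0.23), and its groups overlapped in both. With TMMwsp factors, a variant of TMM, the naive value was 0.07, so the naive direction of Mir425 depends on the scaling. The primed value was negative under every alternative tried, from -0.94 with library totals alone to -0.13 without primed ASC 5. With library totals alone the naive value was -0.61. Scaling by library totals shifted the median over all loci by -0.47 in the naive and -0.71 in the primed comparison. Relative to the median of all loci, Mir191 lay at -1.29 in the naive comparison under TMM and at -1.33 with library totals, and at -1.60 and -1.62 in the primed comparison. Mir425 lay at 0.11 and 0.09, and at -0.24 and -0.25.

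The ratio of both counts within a library needs no scaling between libraries. Naive EV 1 to 5 had 25.9, 27.01, 33.2, 27.4 and 45.9 Mir191 counts per Mir425 count. Primed EV 1 to 5 had 31.2, 35.3, 34.8, 27.8 and 32.4. Naive ASC 1, 3, 4 and 5 had ratios of 83.3, 74.7, 68.4 and 97.9. Those of primed ASC 2 to 5 were 66.0, 93.2, 124 and 65.3. Every ASC library lay above every EV library here too. The log2 ratio was lower in EVs than in ASC by a mean difference of -1.37 in naive samples (2.58-fold) and -1.38 in primed samples (2.61-fold). How efficiently each hairpin product entered the libraries was not measured, so the ratio is one of counts and not of molecules.

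**Figure D3:**
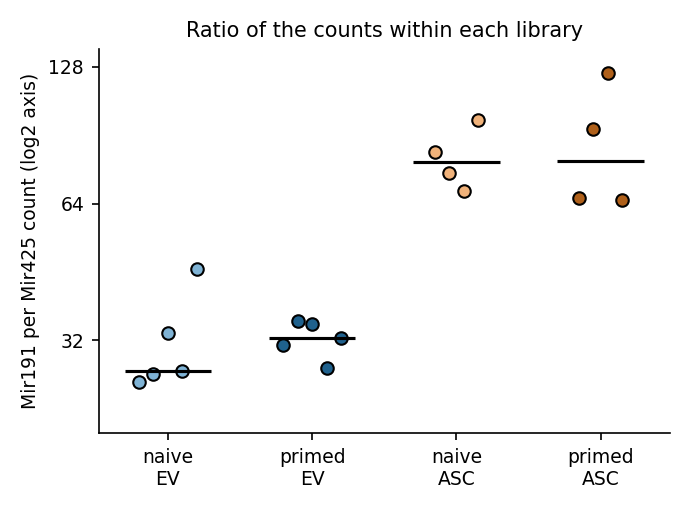
Mir191 counts per Mir425 count in each library, on a log2 axis, with a line at the median of each group. EV libraries lie between 25.9 and 45.9, and ASC libraries between 65.3 and 124.

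Interferon gamma priming was then compared within each compartment. Neither locus passed in EVs. Mir191 was at a log2 fold change of 0.27 in primed against naive EVs (SE 0.15; 95% interval -0.05 to 0.59; n = 5 and 5; adjusted p = 0.544 by the quasi-likelihood test of edgeR over all loci), with 3 of 5 primed libraries above every naive one. Mir425 was at 0.22 (SE 0.21; -0.21 to 0.65; adjusted p = 0.704 in the same test), with 2 of 5 above. In this comparison 2 of 245 loci (0.816%), Mir140 and Mir147, passed and 2.45% did not overlap. Scaling by library totals moved the median over all loci by -0.27, and Mir191 and Mir425 took the values -0.03 and -0.09.

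In the cells the values of the pair were nearly equal in the main fit, and neither passed. Mir191 was at 0.33 in primed against naive ASC (SE 0.17; 95% interval -0.03 to 0.69; n = 4 and 4; adjusted p = 0.261 by edgeR), with 3 of 4 primed libraries above every naive one. DESeq2, which uses its own size factors, gave 0.47 with an adjusted p of 0.0279. It called 40 of the 245 loci in this comparison, more than edgeR did. Under the alternatives tried in edgeR, the adjusted quasi-likelihood p ran from 0.0553 with RLE factors to 0.643 with no filter on low counts. Mir425 was at 0.32 (SE 0.23; -0.16 to 0.80; edgeR adjusted p = 0.414). Its nearness to Mir191 rested on single libraries. Mir425 was at 0.19 without primed ASC 5 and at 0.58 without primed ASC 4, where Mir191 was at 0.31 and 0.43. In this comparison 25 of 245 loci (10.2%) passed and 11.4% did not overlap. All 4 of these edgeR intervals include 0 and stay within 1 log2 unit of it.

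The priming difference in EVs minus that in ASC was -0.06 for Mir191 (SE 0.23; 95% interval -0.54 to 0.42; Benjamini-Hochberg adjusted p by edgeR = 0.939). It was -0.10 for Mir425 (SE 0.31; -0.75 to 0.54; adjusted p = 0.916 in the same test). Here 0 of 245 loci (0%) passed by edgeR, while 26 had an unadjusted p under 0.05, 0 passed by limma-voom and 3, Mir125a, Mir744 and Mir6236, by DESeq2.

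The ratio within libraries did not pass either. Primed and naive EVs differed by 0.05 in the mean log2 ratio (n = 5 and 5, exact two-sided permutation p = 0.833, where the design allows 0.00794 at the smallest). Primed and naive ASC differed by 0.06 (n = 4 and 4, exact two-sided permutation p = 0.886, smallest possible 0.0286). Adjusted over these 2 tests both exact permutation p-values were 0.886. The sign of each difference rested on single libraries. Without naive EV 1 the EV value was -0.02, without naive EV 2 it was -0.004, without primed ASC 4 the ASC value was -0.12, and without naive ASC 4 it was -0.01.

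**Figure D4:**
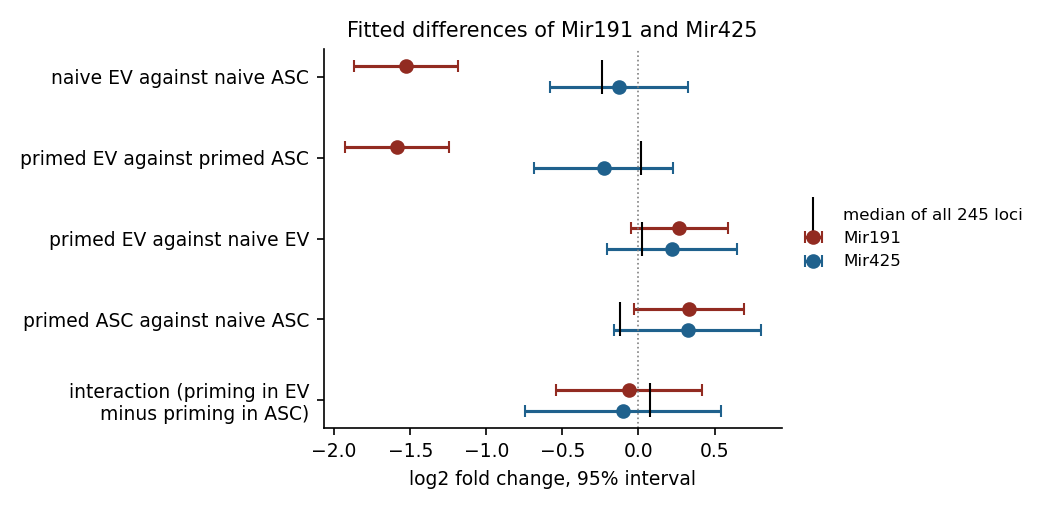
Fitted log2 fold changes with 95% intervals for both loci in the 5 comparisons, with the median of all 245 loci as a black tick. Mir191 lies at -1.53 and -1.59 in the EV against ASC comparisons and Mir425 near 0, and in priming both lie between 0.22 and 0.33 with intervals that include 0.

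The loci whose log2 CPM followed each member most closely over the 18 libraries were listed by Pearson r, as a description. Libraries of the 2 compartments form separate clusters for Mir191, so for this locus r mainly orders loci by their EV against ASC difference. Mir191 was most like Mir151, a miRNA inside the Ptk2 gene, with r = 0.983, followed by Mir193b at 0.974, Mir574 at 0.968, Mir125b-1 at 0.968 and Mir125a at 0.967. Mir151 had 2804 and 3419 CPM in naive and primed EVs and 6370 and 8921 CPM in naive and primed ASC. Mir425 had no near match, with Mir1247 at 0.639, Mir30d at 0.601, Mir10b at 0.565, Mir1964 at 0.554 and Mir99a at 0.515. The r between the members was 0.432, which placed Mir425 96th of 244 loci for Mir191, and Mir191 21st for Mir425.

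With each group's mean removed, which leaves only the differences between libraries of a group, the r between the members was 0.401. Mir425 was then 52nd of 244 for Mir191, and Mir191 was 42nd for Mir425. Mir151 was again first for Mir191, with r = 0.786, and Mir15a was first for Mir425, with r = 0.735. All points share library depth and scaling, and the libraries of a group are few.

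Other loci of like arrangement show how usual an uneven pair is. Of the analysed loci, 54 pairs lie next to each other on a chromosome with starts no more than 1000 bases apart and hairpins on 1 strand. The strand is that of the RefSeq hairpin where the table has one, so Mir191 enters on the plus strand although its counted entry is on the minus strand. Members of a pair differed in their naive EV against ASC log2 fold change by a median of 0.95, from 0.0125 to 5.56. Mir191 and Mir425 differed by 1.40, 21st from the largest, and 25 of the 54 pairs differed by at least 1. The largest difference was that of Mir141 and Mir200c, epithelial miRNAs, at 5.28 and -0.28, and Mir20a and Mir92-1, of a cluster linked to cell growth, stood at 3.82 and -0.26. Mir141 and Mir200c averaged only 59.9 and 15.6 CPM. The epithelial markers, which include both, varied from 0.00156% to 0.287% of counts between naive EV libraries. The smallest was that of Mir134 and Mir668, at -0.75 and -0.76. In primed samples the difference for Mir191 and Mir425 was 1.36, 25th from the largest, against a median of 1.17.

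In both EV against ASC comparisons the pair thus lay near the middle of this order, and for priming it lay near the end of small differences. The values of Mir191 and Mir425 differed by 0.05 in EVs, 50th from the largest of 54 with a median of 0.22, and by 0.009 in ASC, 53rd with a median of 0.44. Both differences were smaller than the SEs of the members' priming values, which ran from 0.15 to 0.23. The order takes no account of precision, and loci of low counts enter it, such as Mir503 at 7.71 CPM on average. The pairs of this list overlap, since a cluster of several loci gives several pairs, and no test was made on them.

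**Figure D5:**
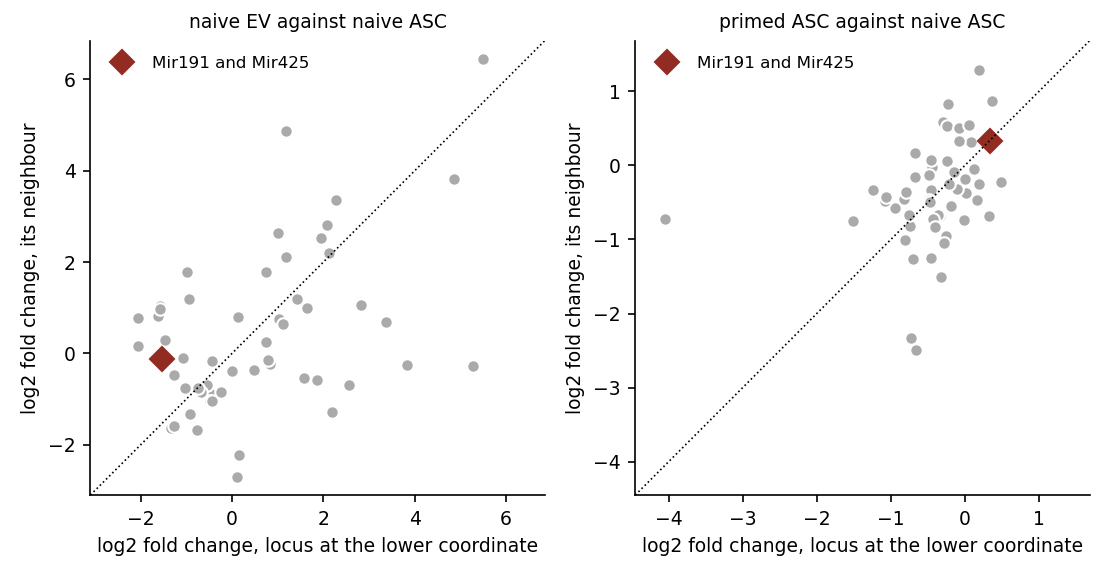
Log2 fold changes of 54 pairs of neighbouring loci, with the locus at the lower coordinate on the x axis and its neighbour on the y axis, and a dotted line of equality. Mir191 and Mir425 (diamond) lie off the line in naive EVs against naive ASC, at -1.53 and -0.13, and on it in primed against naive ASC, at 0.33 and 0.32.

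Loci of miRNAs that, like this pair, serve as qPCR references were set beside it from a list of 18, of which 16 were analysed. The list counts loci and not miRNAs, since some miRNAs have 2 loci in it. Mirlet7a-1 and Mirlet7a-2 averaged 37.4 and 8604 CPM, and Mir26a-1 and Mir26a-2 averaged 55.9 and 7.70. Counting had no option for multi-mapping reads, and its effect on such loci was not tested. In naive EVs against naive ASC 8 were higher and 1 was lower, and 7 did not pass, and in the primed comparison 8 were higher, 3 were lower and 5 did not pass (edgeR's quasi-likelihood test, adjusted over all loci). Over all loci 66.1% and 68.2% passed, 82 higher and 80 lower in the naive and 88 higher and 79 lower in the primed comparison. Median log2 fold changes of the list were 0.72 and 0.67, against -0.24 and 0.02 over all loci. Mir30e was 3.24 and 3.34 higher on the log2 scale, Mir186 was 1.58 and 1.70 higher, and Mir320 was lower at -0.84 and -1.27. Mir103-1, at -0.39 and 0.03, did not pass in either.

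Under priming, 0 of the 16 passed in EVs by edgeR, DESeq2 or limma-voom. An unadjusted edgeR p under 0.05 was found for 1 of them, beside 25 of all 245 loci. In ASC, where 10.2% of all loci passed, 1 of the 16 rose, Mir423, at 1.04 (Benjamini-Hochberg adjusted p by edgeR = 0.0301). Of the 16, limma-voom called 1 and DESeq2 2, Mir320 and Mir423, beside 22 and 40 of all 245 loci. In the interaction 0 passed by any of these tools, and 1 had an unadjusted edgeR p under 0.05, beside 26 of all 245 loci.

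A reference has to be steady across the samples it serves, and the SD of log2 CPM over all 18 libraries was taken as a plain measure of that. Mir425 had an SD of 0.325, the 11th smallest of 245 loci, close to Mir25 at 0.296 and Mir103-1 at 0.298. These SDs hold for TMM-scaled values and were not taken under other scalings. With library totals alone Mir425 was lower in EVs than in ASC, at -0.61 in naive and -0.94 in primed samples. The middle values of all loci were then -0.70 and -0.69. Mir191 had an SD of 0.837, the 123rd smallest and equal to the median over all loci. Within groups the order of the pair was the other way round. Mir191 had a within-group SD of 0.220, the 8th smallest, and Mir425 one of 0.314, the 55th smallest, with a median of 0.444 over all loci. Counting error enters this measure, and its part in the order of the pair was not tested. Mir425 averaged 617 CPM over all libraries, on 120 to 1168 counts in a library.

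A last list held 39 loci that, like Mir191 and Mir425 in RefSeq, lie inside protein-coding host genes, of which 35 were analysed. In naive EVs against naive ASC 12 were higher and 11 lower, and in the primed comparison 14 were higher and 13 lower, beside 66.1% and 68.2% called over all loci. Their median log2 fold changes were -0.15 and 0.03, against -0.24 and 0.02 over all loci. Values in naive samples ran from -2.05 to 5.59. The highest was that of Mir126a of Egfl7, the endothelial miRNA, while Mir151 was lower at -1.18 and Mir140 of Wwp2, known from cartilage, at -1.49, and these 3 passed. Under priming 1 of the 35 rose in EVs, beside 2 of all 245 loci. It was Mir140 at 0.84 (Benjamini-Hochberg adjusted p by edgeR = 0.0110). In ASC 3 rose, Mir140 at 1.01 (adjusted p = 0.00469 in the same test), Mir218-1 at 1.88 and Mir423 at 1.04, and 2 fell, Mir28a at -0.65 and Mir98 at -0.83. These are 5 of 35, beside 10.2% over all loci. Of the 35, limma-voom called 5 and DESeq2 8, beside 22 and 40 of all 245 loci. Mir151, the locus most like Mir191, was at 0.49 in primed ASC and did not pass (adjusted p = 0.0573 in that test). In the interaction 0 passed by edgeR and limma-voom and 1, Mir744, by DESeq2, which called 3 of all 245 loci. An unadjusted edgeR p under 0.05 was found for 4 of the 35, beside 26 of all 245.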

How the data were processed

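Small RNA was sequenced from 18 mouse libraries. The deposited values are raw counts per miRNA hairpin locus, 1 file per library, without normalization. Per the file headers, featureCounts 1.5.3 made them on miRNA genes of Ensembl 76, unstranded and with no option for multi-mapping reads. The submitters' processing notes name STAR 2.0.4, featureCounts 1.45 and GRCm38. How reads were trimmed and aligned is not given in the sources used here. Names came from GENCODE M21 by identifier (1899 of 2009 loci), and Mir191 was matched by its place. Sequences are from the RefSeq table of GRCm38.p6.

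The counts were fitted in R 4.3.3 with edgeR 4.0.16 (limma 3.58.1 for voom). Loci kept by filterByExpr (245, with 99.9573% of counts) were scaled by TMM, with 1 mean per group over all libraries and no block. Standard errors come from the quasi-likelihood F value. Priming contrasts and the interaction were tested by the quasi-likelihood test with Benjamini-Hochberg adjustment over the 245 loci. The ratio was tested by exact permutation in scipy 1.17.1. The edgeR fit was tested on simulated counts drawn from 1 mean profile, with loci changed in primed EVs only. That simulation held no general EV against ASC difference, so it does not cover scaling between compartments. Log2 CPM used a prior count of 2. Totals of 180812 to 3052942 counts set the precision.

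The members and lists were chosen with earlier results of these data known. Named loci are the members, the 5 loci most like each, extreme neighbouring pairs, up to 6 abundant loci per list, loci next to Mir191 in rank and cell type markers. Mir25, Mir28a, Mir98, Mir147, Mir218-1, Mir744 and Mir6236 were named after their values were seen. Alternatives were other scalings, no filter, DESeq2 1.42.0, limma-voom, only the groups compared, replicate blocks and leaving out each library. No replicate libraries agreed within sampling noise, and each was counted as 1 sample. Separate libraries of 1 culture could also differ by more than that noise, so this does not show that the replicates are independent.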

Additional observations from a re-analysis of the deposited data

How the results depend on the processing

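The direction of Mir191 in EVs against ASC was the same under the alternatives tried, which were other scalings, no filter, DESeq2, limma-voom, fits of only the groups compared, replicate blocks and fits without 1 library. With library totals alone the naive and primed values were -2.03 and -2.31 for Mir191 and -0.61 and -0.94 for Mir425, and those of EV priming were -0.0311 for Mir191 and -0.0852 for Mir425, since this scaling moves all loci together. Without 1 library, Mir191 ran from -1.62 to -1.32 (naive) and -1.69 to -1.56 (primed), and Mir425 from -0.23 to -0.02 and -0.49 to -0.13. DESeq2 made Mir191 pass in ASC priming at 0.47, and the cause was not tested. The 2 loci that passed in EV priming became 1 with TMMwsp or library totals alone, 8 with no filter on low counts, 5 with DESeq2 and 1 to 8 without 1 library (1 without naive ASC 1 or 3 or any primed ASC library, 4 without naive EV 1, 8 without primed EV 2). The 25 of ASC priming became 40 with DESeq2, 15 with only the groups compared and 6 to 33 without 1 library (6 without naive ASC 3 or 4, 11 without primed ASC 3, 12 without primed ASC 4). The 0 of the interaction became 3 with no filter or DESeq2 and 0 to 1 without 1 library (1 without naive ASC 5). The interaction value of Mir191 was 0.0094 with no filter and -0.29 to 0.0403 without 1 library (0.0244 without naive EV 4), and that of Mir425 was -0.47 to 0.0324. The priming difference of the log2 ratio was -0.0193 to 0.19 in EVs and -0.12 to 0.19 in ASC without 1 library, and -0.13 in ASC from summed counts. The labels do not say that a number marks a shared animal or culture, and the data support such a pairing only in part. A correlation of deviations over 0.1 was found in 19 of 24 pairs with the same source-name number and 18 of 25 with the same title number. Pairs numbered 2, 3 or 4 had 0.24 to 0.52, and all those at or under 0.1, down to -0.16, included a library titled 5. Of 4 naive EV libraries 3 correlated best with the naive ASC library of their number, against 1 of 5 primed EV libraries with the naive EV library of their title number. With a replicate block by title number 7 loci passed in EV priming and 32 in ASC priming, by source-name number 3 and 31, and the values of Mir191 in ASC priming were 0.40 and 0.44 without a call. Depth limits Mir425 most, with 120 counts in primed ASC 4.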
